A study of Mus musculus with 6 samples.

Results

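The genes described here are 8 genes of MHC class II presentation, chosen by name among the 32879 genes with a counted transcript record: H2-Aa, H2-Ab1 and H2-Eb1, which encode chains of the class II heterodimers, Cd74, H2-DMa, H2-DMb1 and H2-DMb2, which encode their chaperones, and Ciita, the transactivator. RNA sequencing was performed on peritoneal macrophages (PMs) of 3 control and 3 diseased-BWF1 mice, 1 library per mouse. BWF1 mice, the offspring of New Zealand black and New Zealand white parents, spontaneously develop a disease resembling systemic lupus erythematosus. The diseased-BWF1 mice were females of 31, 31 and 34 weeks (replicates 1 to 3), with high titers of antibodies against double-stranded DNA and severe proteinuria. The control mice were age-matched, non-lupus-susceptible females of 33, 33 and 30 weeks, the offspring of New Zealand white and BALB/c parents, and no mouse of either group was described as treated. Per the study's methods, both crosses carry the same H2 haplotype, the set of alleles at the MHC, and PMs were sorted as CD11b+ F4/80+ cells with B cells gated out. Disease and strain cannot be told apart in this design, since all diseased mice were of one cross and all controls of the other. In the labels, the replicate numbers only name mice within a group.

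MHC class II molecules are heterodimers of an alpha and a beta chain that display peptides from endocytosed proteins to CD4+ T cells. They assemble in the endoplasmic reticulum with the invariant chain, encoded by Cd74, and in the endosome H2-DM exchanges the last fragment of that chain for peptide. Ciita does not bind DNA itself but is recruited by factors bound to the X and Y boxes of class II promoters, and in the peritoneal cavity class II is known as a marker that separates small, monocyte-derived macrophages from most large resident ones.

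Of the members, 6 lie in one stretch of chromosome 17 (GRCm38.p6), from H2-DMa (chr17:34119693-34139101) through H2-DMb2 (chr17:34143229-34151553), H2-DMb1 (chr17:34153191-34160229), H2-Ab1 (chr17:34263227-34269418) and H2-Aa (chr17:34282744-34287823) to H2-Eb1 (chr17:34305867-34316674). The promoters of 4 members are shown because these genes share the letters of the elements known to link class II genes to Ciita. The sequences are the 150 bases before the start site in RefSeq, build GRCm38.p6, at chr17:34287824-34287973 (minus strand) for H2-Aa and, on the plus strand, at chr17:34305717-34305866 for H2-Eb1, chr17:34153041-34153190 for H2-DMb1 and chr17:34145099-34145248 for H2-DMb2. Capitals mark the Y box letters TGATTGG and, upstream of them in 3 of the 4, the X box letters (TA, any 2 bases, AAC, any base, GATG), a pattern that was written with these sequences in view.
H2-Aa: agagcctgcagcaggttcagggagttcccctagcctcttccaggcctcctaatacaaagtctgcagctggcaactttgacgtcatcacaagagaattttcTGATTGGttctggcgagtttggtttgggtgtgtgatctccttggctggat
H2-Eb1: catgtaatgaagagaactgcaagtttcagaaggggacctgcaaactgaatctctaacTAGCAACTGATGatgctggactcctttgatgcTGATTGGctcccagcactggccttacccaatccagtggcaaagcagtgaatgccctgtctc
H2-DMb1: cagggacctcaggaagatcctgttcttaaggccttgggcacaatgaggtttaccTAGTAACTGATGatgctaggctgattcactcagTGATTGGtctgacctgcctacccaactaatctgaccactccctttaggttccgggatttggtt
H2-DMb2: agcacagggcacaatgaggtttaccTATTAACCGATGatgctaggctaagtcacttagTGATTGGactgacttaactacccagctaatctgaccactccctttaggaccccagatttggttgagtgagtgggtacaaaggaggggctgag
The Y box began 50 bases before the start site of H2-Aa, 61 before H2-Eb1, 63 before H2-DMb1 and 92 before H2-DMb2, and in the last 3 the X box began 93, 96 and 125 bases before the start site. Searched on both strands in windows of the same length (250 bases before to 50 after the start site), the Y box letters were found in 2568 of 32851 promoters (7.82%) and the X box letters in 45 (0.137%). Both were found in 6 promoters (0.0183%), those of Dusp8, Gm14502, Gm35184, H2-DMb1, H2-DMb2 and H2-Eb1. The letters were matched in neither window of H2-DMa, and the promoters of H2-Ab1 and Ciita were not analysed here. Cd74 was not among the 6 genes with both, and its matches to single boxes are not reported here.

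The libraries held 3629901 to 5003360 counts, of which 89.1% to 93.0% fell on records with a gene name. Counts were summed per gene and divided by a library size factor between 0.871 and 1.21 (normalized counts). Markers of large PMs were abundant in every mouse, led by Prg4 (59043 to 93059 normalized counts), Itgam and Lrp1, and Gata6, the transcription factor that defines these cells, was at 262 to 454 normalized counts, so the sorted cells carried the markers of their label. Calls required a change of at least 1.5-fold and a Benjamini-Hochberg adjusted p under 0.05 over 10505 genes in the quasi-likelihood test of edgeR, and the log2 fold changes given are of diseased-BWF1 over control. With 128 genes called, the share over all genes tested was 1.22% (0.400% higher and 0.819% lower in diseased-BWF1 mice). No source states whether mice of a group were handled apart, so that p-values cover the spread between these 6 libraries.

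No class II gene was called between PMs of diseased-BWF1 and control mice. Of the 8 members, 7 had enough counts to be tested and 0 were called in either direction, beside 1.22% of all genes tested. An unadjusted p under 0.05 in edgeR's test was reached by 0 members, beside 1385 of 10505 genes. For so few genes, counts of 0 are near these shares and do not set the members apart. DESeq2 and limma-voom also called 0 members, though DESeq2 gave Cd74 no adjusted p. Their median log2 fold change was 0.20, against 0.0053 over all genes tested. Normalized counts of the groups overlapped for all 8 members, whereas 20.8% of the genes tested showed no overlap. The larger differences lay between libraries of the same group. H2-Aa, H2-Ab1, H2-Eb1, Cd74 and H2-DMb1 were higher in replicate 1 of each group than in its other mice by at least 2-fold. With 1 library per mouse, the mouse and the handling of its library cannot be told apart. Replicate 1 was the highest mouse of both groups for all 8 members, as it was for 10.1% of the genes tested. In bulk RNA, fewer cells of a type and less RNA per cell cannot be told apart.

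**Figure D1:**
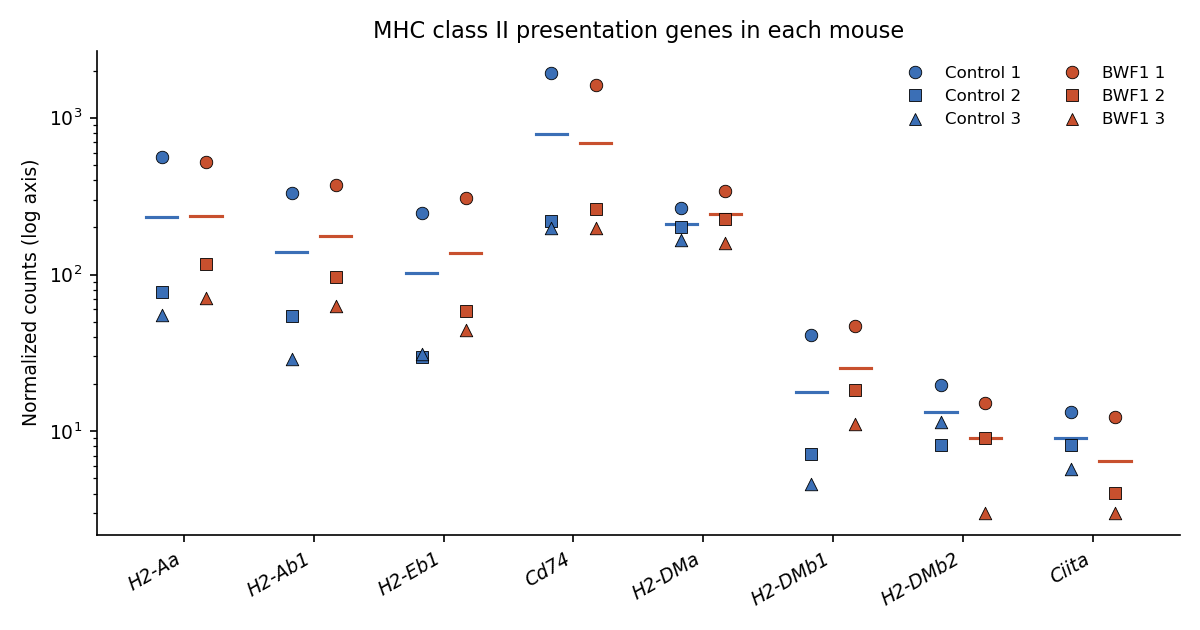
Normalized counts (log axis) of the 8 genes in each mouse, with points for mice by group and replicate number and bars for group means. Replicate 1 of both groups lies above the other 4 mice for H2-Aa, H2-Ab1, H2-Eb1, Cd74 and H2-DMb1, while the groups overlap for every gene.

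Cd74 (chr18:60803849-60812652), the invariant chain that escorts new class II molecules to the endosome, had the most counts among the members. It reached 1936 normalized counts in control replicate 1, against 218 and 198 in control replicates 2 and 3. In PMs of diseased-BWF1 mice it was at 1621, 262 and 197 in replicates 1 to 3. One mouse of each group was thus far above the others, and the remaining 4 mice lay within 197 to 262. Group means were 784 ± 998 (SD, n = 3) and 693 ± 804 (SD, n = 3), and the log2 fold change of -0.18 (SE 1.09) did not pass (adjusted p = 0.968, edgeR). The exact two-sided permutation test, which cannot go below 0.1 with 3 against 3 mice, gave p = 0.8.

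H2-Aa, the alpha chain of I-A, was at 563.5, 77.2 and 55.1 normalized counts in control replicates 1 to 3 and at 519, 118 and 70.6 in diseased-BWF1 replicates 1 to 3. The same pair of mice was high, and the other 4 overlapped between groups. The means were nearly the same, 232 ± 287 and 236 ± 247 (SD, n = 3 each), with a log2 fold change of 0.01 (SE 1.01, adjusted p = 0.999, edgeR).

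H2-Ab1, the beta chain of I-A, was at 332, 54.5 and 28.7 normalized counts in the controls and at 372, 96.2 and 62.5 in the diseased-BWF1 mice, in replicate order. Within each rank the diseased-BWF1 mouse was the higher of the pair, but the groups overlapped because the high control exceeded both low diseased mice. Its means were 138 ± 168 and 177 ± 170 (SD, n = 3 each), and the log2 fold change was 0.34 (SE 0.96, adjusted p = 0.915, edgeR).

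H2-Eb1, the beta chain of I-E, was at 247, 29.8 and 31.0 normalized counts in the controls and at 309, 58.7 and 44.4 in the diseased-BWF1 mice. Replicate 1 was again the high mouse of each group, with overlap between groups. Means of 103 ± 125 and 137 ± 149 (SD, n = 3 each) gave a log2 fold change of 0.40 (SE 1.00, adjusted p = 0.903, edgeR). Its alpha chain partner, H2-Ea, is annotated in GRCm38.p6 as a transcribed pseudogene. It had 0 counted records here, so that its level could not be measured. The exact two-sided permutation tests gave p = 1 for H2-Aa and p = 0.5 for H2-Ab1 and H2-Eb1.

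The chaperone H2-DM is itself a heterodimer, and its alpha chain gene varied far less between mice than its beta chain gene H2-DMb1. H2-DMa was at 264, 202 and 167 normalized counts in the controls and at 342, 227 and 159 in the diseased-BWF1 mice. Replicate 1 was the highest mouse of each group here too, but only 1.59 and 2.15 times the lowest mouse of control and diseased-BWF1 mice, respectively. The groups overlapped, with means of 211 ± 49.3 and 243 ± 92.3 (SD, n = 3 each) and a log2 fold change of 0.20 (SE 0.30, adjusted p = 0.823, edgeR).

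H2-DMb1, a beta chain of H2-DM, was at 41.4, 7.20 and 4.59 normalized counts in the controls and at 47.2, 18.2 and 11.1 in the diseased-BWF1 mice. It shared the high replicate 1 mice with the class II chain genes, on 4 to 50 counts per library. The groups overlapped (log2 fold change 0.48, SE 0.85, adjusted p = 0.854, edgeR). H2-DMb2, the neighbouring second beta chain gene, was at 19.9, 8.23 and 11.5 in the controls and at 15.1, 9.12 and 3.03 in the diseased-BWF1 mice. Its promoter holds both boxes, as that of H2-DMb1 does, but replicate 1 exceeded the next mouse by less than 2-fold in each group, and the log2 fold change was -0.54 (SE 0.60, adjusted p = 0.757, edgeR). Of the 75-base stretches of their transcripts, 15.8% of those of H2-DMb1 and 16.1% of those of H2-DMb2 also occurred in other genes, for H2-DMb1 in H2-DMb2 alone, so that the split of counts between both is uncertain. Genes on the opposite strand overlap H2-Eb1 (Gm20513), H2-DMa (Brd2, Gm20493 and CR974462.4) and Ciita (Dexi), the same-strand genes Mir5107 and CR974462.3 overlap Cd74 and H2-DMa, and how shared reads were assigned is not given in the sources used here.

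Ciita (chr16:10480014-10531064), through which most class II transcription is known to be switched on, was near the limit of detection. It had 16, 8 and 5 counts in the controls and 13, 4 and 3 in the diseased-BWF1 mice, which is 13.2, 8.23 and 5.74 and 12.3, 4.05 and 3.03 normalized counts. The highest mouse was replicate 1 in each group, on counts whose expected counting error was 35.0% of the mean, and the groups overlapped. Ciita did not pass the filter on low counts and, tested without that filter, had a log2 fold change of -0.51 (SE 0.62, adjusted p = 0.759, edgeR). The gene has alternative first exons that different cell types are known to use. Counts fell almost wholly on 2 of its 9 records: a curated one whose transcript starts at chr16:10489781 had 16, 7 and 5 counts in the controls and 0, 4 and 3 in the diseased-BWF1 mice, and a predicted one held all 13 counts of diseased-BWF1 replicate 1. The start site of the predicted record is not known here, so that start sites could not be compared between this mouse and the others.

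**Figure D2:**
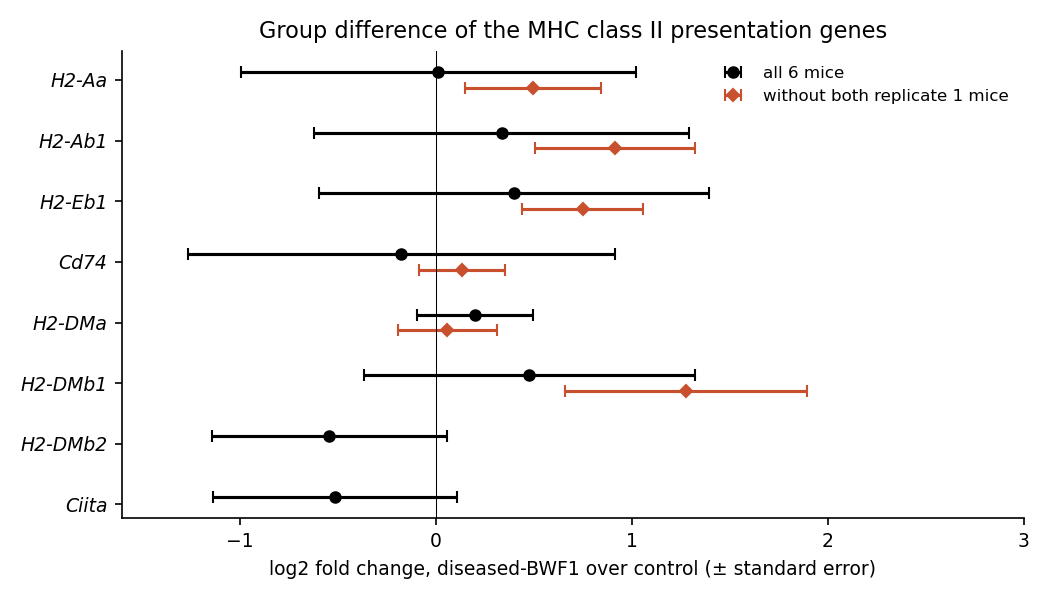
Log2 fold change of diseased-BWF1 over control PMs for the members, with bars of 1 SE from edgeR's quasi-likelihood test, with all 6 mice and without both replicate 1 mice (chosen after the data were seen). With all mice the values lie between -0.54 and 0.48 and no gene was called.

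Per kilobase of transcript, the order of the control means was Cd74 (640 ± 815 normalized counts per kilobase), H2-Aa (206 ± 255), H2-DMa (127 ± 29.8), H2-Ab1 (114 ± 139), H2-Eb1 (61.6 ± 75.1), H2-DMb1 (12.6 ± 14.6), H2-DMb2 (9.26 ± 4.21) and Ciita (2.30 ± 0.966; SD, n = 3 each). In diseased-BWF1 mice the means per kilobase followed the same order, from Cd74 (566 ± 657) to Ciita (1.63 ± 1.28; SD, n = 3 each). Neighbours in this order overlapped within 1 SD in both groups, except H2-DMb2 and Ciita in controls. The place of H2-DMa depended on the mouse. It was below H2-Aa and H2-Ab1 per kilobase in replicate 1 of both groups and above both in each of the other 4 mice.

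The spread between mice was described by the coefficient of variation (CV, SD over mean of normalized counts). For Cd74, H2-Aa, H2-Ab1 and H2-Eb1 the CV was 127%, 124%, 122% and 122% in controls and 116%, 105%, 96.0% and 108% in diseased-BWF1 mice. The median CV of all genes tested was 17.4% in controls and 15.0% in diseased-BWF1 mice, and at most 0.486% of genes in controls and 1.32% in diseased-BWF1 mice had a larger CV than each of these 4. Counting error alone would give them a CV of 3.50% to 8.75% at their mean counts. H2-DMb1 was also wide, with 116% and 74.98%, against 20.7% from counting error. H2-DMa was not: its CV of 23.4% in controls was exceeded by 34.2% of genes, and its CV of 38.0% in diseased-BWF1 mice by 13.04%. H2-DMb2 (45.5% and 66.5%) and Ciita (42.1% and 78.6%) varied less than H2-DMb1 in controls, and their counting error was 29.3% and 35.0%.

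**Figure D3:**
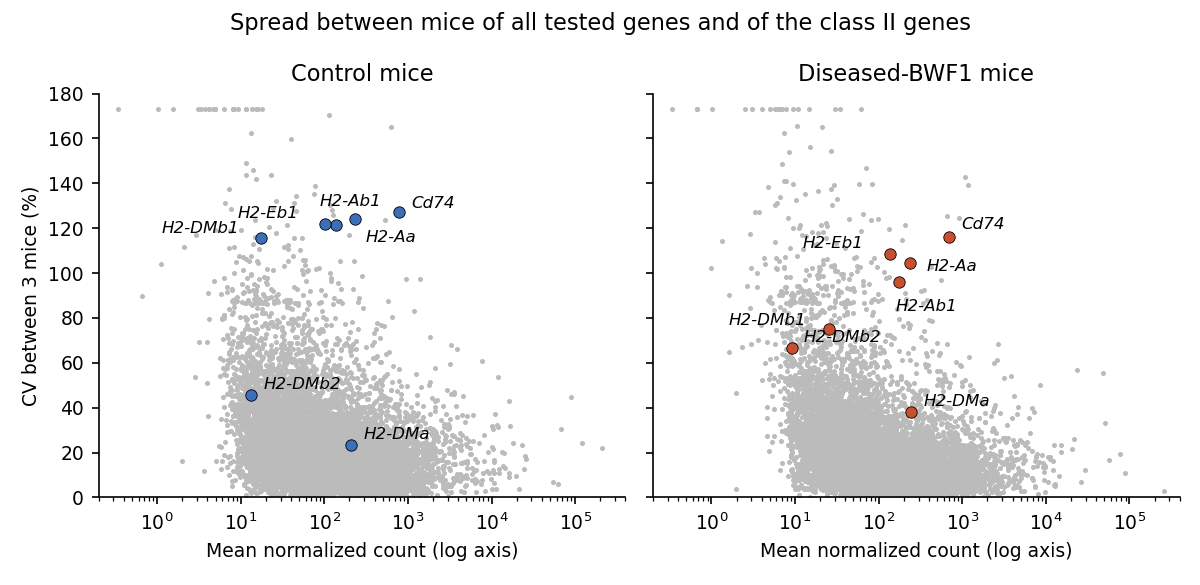
CV between the 3 mice of a group (percent) against mean normalized count (log axis), for control and diseased-BWF1 mice, with grey points for the genes tested and named points for the class II genes. H2-Aa, H2-Ab1, H2-Eb1 and Cd74 lie at 96.0% to 127%, whereas the median gene is at 17.4% in controls and 15.0% in diseased-BWF1 mice.

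The high mouse carried the same number in both groups, which names no shared animal, litter or day in the labels. With a threshold set after the values were seen, 5 of the 10505 genes tested (0.0476%) were at least 3-fold higher in replicate 1 than in both other mice of each group. Of these 5, 4 were H2-Aa, H2-Ab1, H2-Eb1 and Cd74, and the other was Fam53c, at 34.8, 0 and 0 normalized counts in controls and 149, 23.3 and 0 in diseased-BWF1 mice. At a threshold of 2-fold there were 11 genes (0.105%), 5 of them members, with H2-DMb1 added. The same 3-fold rule found 0 genes for replicate 2 and 9 genes (0.0857%) for replicate 3, none of them members.

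Within a mouse, the ratios among the 4 high genes varied less than their ratios to H2-DMa. For the 5 members with at least 20 counts in every library, 10 ratios per kilobase were formed. Among Cd74, H2-Aa, H2-Ab1 and H2-Eb1, the highest of the 6 mice exceeded the lowest by 1.61-fold (H2-Aa over Cd74) to 2.52-fold (H2-Ab1 over Cd74). The ratios to H2-DMa ranged 6.34-fold (H2-Eb1) to 7.29-fold (H2-Ab1) between mice. Cd74 was 9.94, 1.47 and 1.61 times H2-DMa in the controls and 6.42, 1.57 and 1.67 times in the diseased-BWF1 mice, so that the 4 lower mice were close to each other.

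Of the 10 ratios, which reuse the same genes and are not independent, 2 did not overlap between the groups. By normalized counts, 20.8% of all genes tested did not overlap either. H2-Eb1 over Cd74 per kilobase was 0.0937, 0.1003 and 0.115 in the controls and 0.140, 0.164 and 0.166 in the diseased-BWF1 mice. All diseased-BWF1 mice were above all controls, with a difference of 0.60 on the log2 scale. H2-Aa over H2-Ab1 was 1.83, 1.52 and 2.06 in the controls and 1.5, 1.31 and 1.21 in the diseased-BWF1 mice, a difference of -0.42 on the log2 scale with all controls above. The exact two-sided permutation test gave p = 0.1 for each (0.4 after Benjamini-Hochberg adjustment over the 10 ratios), the smallest value that 3 against 3 mice allow, so that no ratio could pass 0.05 and neither difference is shown. The reads come from z and d alleles of these polymorphic genes in both groups, while the reference is of C57BL/6J mice, and the effect of that difference on the counts was not tested.

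**Figure D4:**
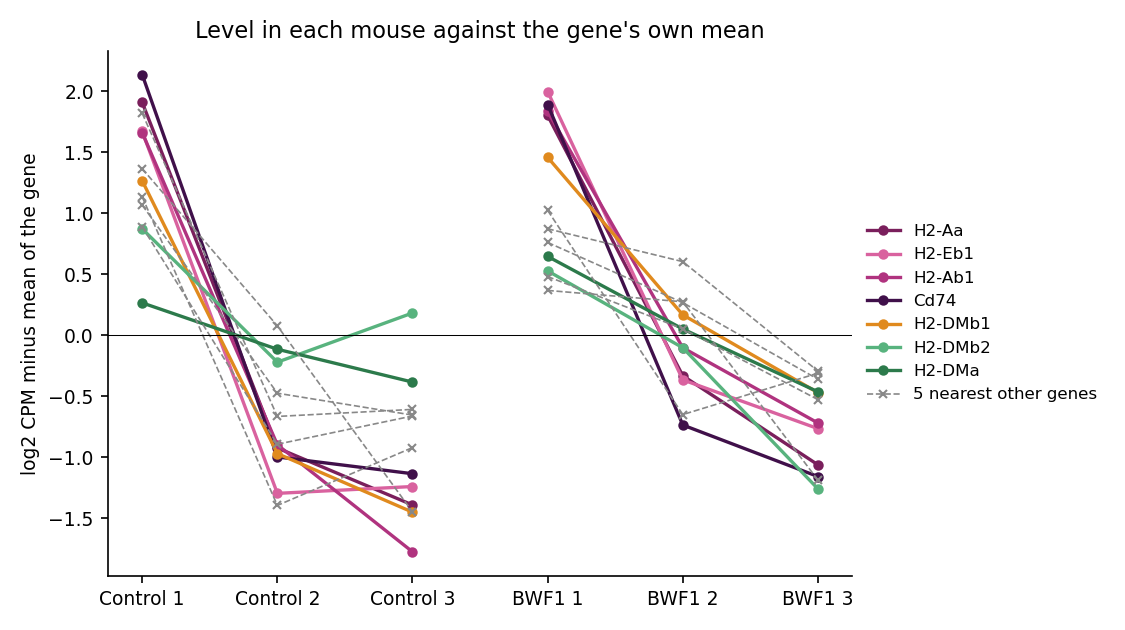
Centred log2 CPM (CPM being counts scaled to the library size, with a prior count of 2, minus the mean of the 6 mice) of the class II genes in each mouse; lines only join the values of one gene. H2-Aa, H2-Ab1, H2-Eb1 and Cd74 peak together in replicate 1 of both groups, and H2-DMa stays flatter.

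Cd74 is made as a short and a long isoform, the long one carrying an extra thyroglobulin-type domain that is known to inhibit cathepsins. The share of Cd74 counts on the long record was 23.4% (exact 95% binomial interval 21.7% to 25.2%, counting error only) in control replicate 1, 17.5% (12.6% to 23.2%) in replicate 2 and 18.0% (12.6% to 24.6%) in replicate 3. In diseased-BWF1 mice it was 22.4% (20.5% to 24.5%), 22.8% (17.8% to 28.4%) and 15.9% (11.1% to 21.8%). How reads that fit both records were assigned is not given in the sources used here, so these intervals can be too narrow. The groups overlapped, and the share in the high mice was within the intervals of at least 1 other mouse. Counts on both records were thus high in the high mice.

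Over the 6 mice, the members nearest to the mean profile of H2-Aa, H2-Ab1, H2-Eb1 and Cd74 outside those 4 were H2-DMb1, with a root mean square difference of 0.41 in centred log2 CPM, H2-DMb2 (1.01) and H2-DMa (1.02). The nearest 5 genes outside all lists used here were Mcm7 (0.66), Irgm1 (0.74), H2-Q5 (0.76), Iigp1 (0.77) and Gvin1 (0.79). Mcm7, a subunit of the replicative helicase, was at 57.9, 18.5 and 16.1 normalized counts in controls and 55.7, 16.2 and 21.2 in diseased-BWF1 mice. Irgm1, an interferon-inducible GTPase, was at 117, 18.5 and 26.4 and at 96.3, 80.0 and 42.4, in the same order. H2-DMb1 was thus nearer to the 4 class II genes than any of these, whereas H2-DMa and H2-DMb2 were farther away. For H2-DMb2, with 3 to 24 counts per library and a counting error of 29.3%, low counts can add to this difference. Their part was not tested.

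Markers of other class II-bearing cells that the gate could hold were summed by list. The 12 B cell markers (11 with a record, none passing the count filter) summed to 37.2, 26.8 and 31.0 normalized counts in controls and 23.6, 24.3 and 16.1 in diseased-BWF1 mice, and were led by Cd79a, Fcer2a and Cd22. Ms4a1, a defining marker of B cells, had at most 6 counts in any library. The 8 dendritic cell markers summed to 170, 249 and 322 in controls and 60.4, 73.9 and 36.3 in diseased-BWF1 mice, led by Cd209a, Zbtb46 and Xcr1, with Ccr7 at 0 in all libraries. Most of this sum was Cd209a, a lectin of monocyte-derived cells that was called lower in diseased-BWF1 mice, at 134, 213 and 280.2 in controls and 7.55, 18.2 and 5.04 in diseased-BWF1 mice. Without Cd209a the other 7 markers summed to 36.4, 36 and 41.3 in controls and 52.9, 55.7 and 31.3 in diseased-BWF1 mice, with replicate 1 highest in neither group. Zbtb46, which marks classical dendritic cells, was at 29.8, 30.9 and 21.8 and at 44.4, 43.6 and 22.2. The 10 markers of small PMs and monocytes, led by Retnla, Clec10a and Folr2, summed to 2465, 5675 and 4606 in controls and to 3641, 1073 and 751 in diseased-BWF1 mice. This order was that of Retnla, which alone was at 1851, 4836 and 3091 and at 3071, 424 and 52.5. Without Retnla the other 9 markers summed to 614, 839 and 1515 and to 570.2, 648 and 699, with replicate 1 lowest in each group. Most of this sum was Clec10a and Folr2, so its order is not that of 9 markers. Clec10a was at 192, 287 and 815 in controls and 165, 466 and 320 in diseased-BWF1 mice. Single markers departed from the order of this sum. Folr2 was at 343, 433 and 598 in controls and 152, 31.4 and 229 in diseased-BWF1 mice. Irf4 was at 47.2, 62.8 and 27.6 in controls and 199, 59.8 and 84.7 in diseased-BWF1 mice. The 6 T cell markers, led by Cd28, Cd3d and Cd2, summed to 2.03 to 25.7 and the 12 large PM markers to 125413 to 174682. The part of any of these cells in the difference between mice was not tested.

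The other genes of the pathway were taken as lists. Of the other class II genes, H2-Ob, which with H2-Oa forms the inhibitor of H2-DM, was the 1 gene tested, at 39.7, 20.6 and 24.1 normalized counts in controls and 33.1, 33.4 and 24.2 in diseased-BWF1 mice. The groups overlapped (log2 fold change 0.09, SE 0.32, adjusted p = 0.935, edgeR), and H2-Oa and H2-Eb2 had at most 2 counts in a library.

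Of the 7 factors that bind class II promoters (the RFX and NF-Y subunits and Creb1), all 7 were tested and 0 called, with a median log2 fold change of 0.15. Nfyb, an NF-Y subunit, was higher in all diseased-BWF1 mice (56.7 to 67.6 normalized counts) than in the controls (50.5 to 55.4), as was Creb1 (357 to 419 against 305 to 351). These values did not pass (adjusted p = 0.588 and 0.475, edgeR), and 9.59% of all genes tested had all diseased-BWF1 mice above all controls.

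Of the 10 genes upstream of Ciita, 9 were tested and 0 called, with a median log2 fold change of 0.0067. The largest was that of Irf4 (1.32, SE 0.49, adjusted p = 0.314, edgeR), with overlap between the groups. Ifngr1, the ligand-binding chain of the interferon gamma receptor, was at 566 to 652 normalized counts in controls and 666 to 946 in diseased-BWF1 mice, without overlap and without passing (log2 fold change 0.36, SE 0.16, adjusted p = 0.387, edgeR).

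Genes of antigen processing, which cut the invariant chain and make peptides, were the list with most control values above the others. All 9 were tested and 0 called, with a median log2 fold change of -0.42. Of them, 5 (Ctsb, Ctsd, Ctsl, Ctsz and Lgmn) had all controls above all diseased-BWF1 mice, as did 11.2% of all genes tested. Ctsb, a lysosomal cysteine protease, was at 15297, 15405 and 17943 normalized counts in controls and 8950, 7937 and 10766 in diseased-BWF1 mice (log2 fold change -0.82, SE 0.17, adjusted p = 0.08, edgeR). Ctsl (log2 fold change -0.86) and Ctsz (-0.42) are further lysosomal cysteine proteases. Lgmn, an asparaginyl endopeptidase, had a log2 fold change of -0.95 (SE 0.21, adjusted p = 0.0927, edgeR) and Ctsd, an aspartic protease, of -0.96 (SE 0.22, adjusted p = 0.101, edgeR). DESeq2 called these 3 genes lower, with adjusted p of 0.000152 for Ctsb, 0.00102 for Lgmn and 0.000846 for Ctsd. Of the 12407 genes it tested, it called 242 lower, and 2.97% in either direction. Ctss, the protease best known for cutting the invariant chain, was at 6824, 5094 and 7134 in controls and 5402, 5289 and 5594 in diseased-BWF1 mice. Its groups overlapped, and replicate 1 was the highest mouse in neither. Of the class II turnover genes, 2 were tested and 0 called, with log2 fold changes of -0.22 (Marchf8) and -0.00071 (Marchf1), both ubiquitin ligases.

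**Figure D5:**
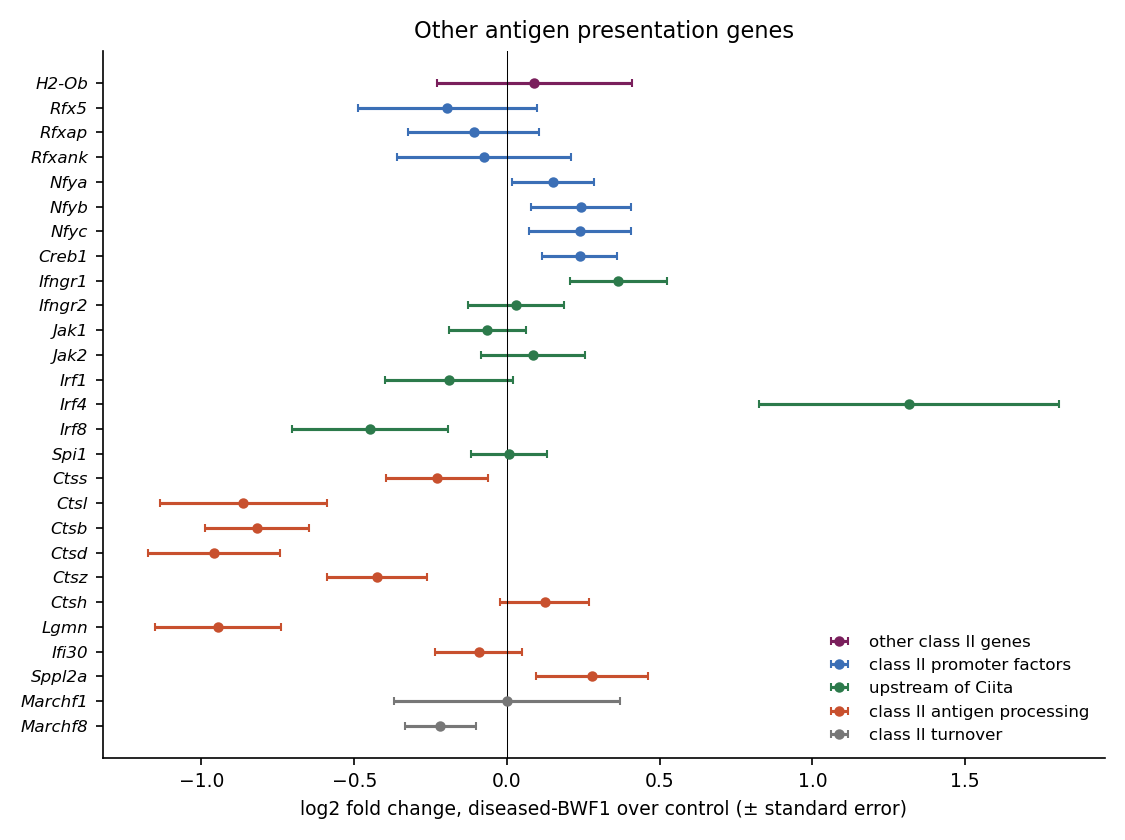
Log2 fold change of diseased-BWF1 over control PMs for tested genes of each pathway list, with bars of 1 SE from edgeR's quasi-likelihood test. No gene shown was called, and the lowest values are those of Ctsd, Lgmn, Ctsl and Ctsb, between -0.96 and -0.82.

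The group comparison of the class II genes rested on the high mice. Without both replicate 1 mice, a comparison of 2 against 2 that was chosen after the data were seen, the log2 fold changes were 0.91 (SE 0.41) for H2-Ab1, 0.75 (SE 0.31) for H2-Eb1, 0.50 (SE 0.35) for H2-Aa and 0.13 (SE 0.22) for Cd74. H2-DMb1 was at 1.28 (SE 0.62) and H2-DMa at 0.06 (SE 0.25), and H2-DMb2 and Ciita fell below the count filter. None was called (for the first 4, adjusted p = 0.627, 0.598, 0.76 and 0.91, edgeR), and 6 of 10556 genes were (0.0568%). Leaving out 1 mouse at a time moved the log2 fold change of Cd74 from -1.78 without diseased-BWF1 replicate 1 to 1.74 without control replicate 1, and that of H2-Aa from -1.32 to 1.83 for the same mice. No member was called in any of these comparisons.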

How the data were processed

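RNA of sorted PMs was sequenced as poly(A) libraries from a stranded kit (2 × 75 bases). The authors deposited 1 table per mouse with whole-number counts for 107193 RefSeq records, not normalized. The submitters' processing notes name Salmon 0.8.0, DESeq2 and GRCm38.p6 without their roles. Of the records, 86466 were matched to a gene symbol by RefSeq accession (40712 in another version) and summed per gene, and 20727 unmatched records were left out. Groups came from the sample titles. edgeR 4.0.16 (R 4.3.3; filterByExpr, TMM, quasi-likelihood test, no covariate) was fitted to all 6 mice, after tests on simulated data, with SE as the log2 fold change divided by the square root of F. DESeq2 1.42.0 gave size factors for normalized counts and, with limma-voom 3.58.1, an alternative test. A total of 3 counts corresponds to 0.652 to 0.888 CPM, and intervals cover counting error only. Between any pair of libraries the variance per gene was 9.56 times that of sampling or more, so none was a copy of another. The members and all gene and marker lists were chosen with earlier results of these data known. Named were all members, listed pathway genes that were called or whose groups did not overlap, the 5 genes nearest in profile, and the 3 leading markers of each list. Outside this rule, H2-Ob, Ctss, Irf4, Marchf1, Marchf8, Gata6, Ms4a1, Ccr7 and the genes of the other observations were named with their values known. Alternatives covered the count filter, scaling, tool, a replicate block, age, curated records alone and leaving out mice. Some listed genes are not reported individually here.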

Additional observations from a re-analysis of the deposited data

How the results depend on the processing

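No member was called under any alternative, and adjusted p ranged from 0.312 to 1.00 over members and alternatives. Of 114 alternative log2 fold changes of members, 98 kept their direction and 16 reversed. Leaving out 1 mouse at a time gave log2 fold changes of -1.32 to 1.83 for H2-Aa, -0.83 to 2.08 for H2-Ab1, -1.02 to 2.17 for H2-Eb1, -1.78 to 1.74 for Cd74, -0.14 to 0.43 for H2-DMa, -0.32 to 2.08 for H2-DMb1, -1.13 to -0.11 for H2-DMb2 and -0.72 to -0.16 for Ciita. Besides these, H2-Aa reversed to -0.0086 without the filter on low counts and Cd74 to 0.13 without both replicate 1 mice. The cause was not tested. In the pathway lists 0 genes were called lower with edgeR, 1 without the filter on low counts and 3 with DESeq2. H2-DMb1, H2-DMb2 and Ciita gave no value where they fell below a filter, and Cd74 had no adjusted p in DESeq2.

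The labels give same-numbered mice nothing in common but the number. Over genes, deviations from the group means correlated at 0.12, 0.0056 and 0.16 for same-numbered mice of replicates 1 to 3. Pairs of different number correlated at -0.14 to 0.057. The mice of replicates 1 and 3 correlated best with their own number, and those of replicate 2 did not. Whether same-numbered mice were handled together is not stated and was not tested. With the replicate block in edgeR, 38 genes were called in place of 128 and the log2 fold changes were 0.62 for H2-Ab1 (adjusted p = 0.324), 0.56 for H2-Eb1 (adjusted p = 0.312), 0.24 for H2-Aa, -0.01 for Cd74, 0.16 for H2-DMa, 0.77 for H2-DMb1 and -0.59 for H2-DMb2. The SE with the block was 0.22 for H2-Ab1, 0.19 for H2-Eb1, 0.18 for H2-Aa and 0.16 for Cd74, against 0.96 to 1.09 without it. With this block, 2 of the 7 members tested (H2-Ab1 and H2-Eb1) had an unadjusted p under 0.05 in edgeR, beside 1373 of 10505 genes. Without control replicate 1 there were also 2 (H2-Ab1 and H2-DMb1), beside 1263 of 10791 genes. Over all genes, 259 were called without the filter, 84 with at least 10 counts in every library, 369 with DESeq2, 16 on curated records alone, 21 to 51 without 1 mouse and 6 without both replicate 1 mice.

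With 3 mice a group and no block, the SE of the 4 high genes (0.96 to 1.09 on the log2 scale) exceeded each of their group differences. For Ciita and H2-DMb2 the counts themselves, 3 to 24 per library, also limited the precision.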

Other observations

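Further genes near the profile of the 4 high class II genes, named after their values were seen, were Stat5a, Trim72, Mcm5, Igtp and Pole, with root mean square differences of 0.80, 0.80, 0.80, 0.81 and 0.81 in centred log2 CPM over the 6 mice. Mcm5, a subunit of the replicative helicase, was at 64.5, 21.6 and 26.4 normalized counts in controls and 56.7, 25.3 and 26.2 in diseased-BWF1 mice. Mki67, a marker of dividing cells, was at 125, 64.8 and 47.1 and at 165, 27.3 and 55.5, so that replicate 1 was the highest mouse of each group. Siglec1, a sialic acid-binding receptor of macrophages, was at 2956, 612 and 603 in controls and 939.5, 682 and 590.0 in diseased-BWF1 mice, with a clear high mouse among the controls. Fcgr1, the high-affinity receptor for IgG, was at 186, 30.9 and 39.0 in controls and at 278, 207 and 91.8 in diseased-BWF1 mice. The similarity of profiles was not tested, and edgeR called none of these genes between the groups.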
